A study of Mus musculus castaneus and Mus musculus domesticus with 13 samples.

Results

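RNA-seq libraries of 4 CASP ntESC lines and 2 B6D2F1 ntESC lines, 6 of the 13 libraries of this series, were compared, and all 21706 genes of the count table were considered. ntESCs are embryonic stem cells derived from blastocysts made by somatic cell nuclear transfer. The donor nuclei came from large leukocytes of peripheral blood and were placed in enucleated B6D2F1 oocytes, so lines of both strains received B6D2F1 oocyte cytoplasm. CASP/1Nga is a wild-derived inbred strain of Mus musculus castaneus, and its lines were M3 and M5 from male donors and F4 and F6 from female donors. B6D2F1 is the F1 hybrid of C57BL/6NCrSlc and DBA/2CrSlc laboratory mice, and its lines were M3 from a male and F2 from a female donor. The fit behind the tests also held 4 ntESC lines, of both sexes, of CAST/Ei, another castaneus strain. The spread used in the tests therefore includes that of the CAST lines. Each line is 1 clone with 1 library, so the spread between libraries of a strain holds line, sex and clone together. The sources used here do not say whether lines of a strain and sex came from different donors, so the tests reflect how much these lines vary and nothing wider. Lines were kept in medium with LIF and the 2 differentiation inhibitors known as 2i, on C57BL/6NCrSlc embryonic fibroblast feeders that were thinned out by plating on gelatin before RNA was taken. One library of a B6D2F1 ESC line made from fertilized embryos served as a single reference value without replicates.

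Mouse embryonic stem cells in 2i and LIF hold a naive state in which Pou5f1, Sox2 and Nanog keep a network of pluripotency genes active. The strain of the donor sets the alleles of every nuclear gene, and clones from one strain can still differ in chromosome content, imprinting and X-linked expression. Reads of all libraries had been aligned to one genome based on C57BL/6J. A difference in RNA level and a difference in how castaneus reads align therefore cannot be told apart for a single gene from these counts.

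Library totals lay between 33395162 and 38773984 counts in the CASP lines, at 37477779 and 38513674 in B6D2F1 M3 and F2 and at 40957481 in the ESC library. Levels are given as CPM, the count relative to a library size scaled with TMM factors, and a gene was called when its adjusted p in edgeR's quasi-likelihood test was under 0.05. CASP lines resembled each other more than they resembled B6D2F1 lines. Between 188 and 1029 genes differed by at least 2-fold between any 2 CASP lines, 151 between the B6D2F1 pair, and 2787 to 3210 between a CASP and a B6D2F1 line. Pou5f1 averaged 908 ± 51.6 CPM in CASP lines and 719 ± 13.02 CPM in B6D2F1 lines (SD, n = 4 and 2), a log2 fold change of 0.34. Sox2 averaged 334 ± 33.9 CPM in CASP and 329 ± 3.1 CPM in B6D2F1 lines, and Nanog 510 ± 78.5 and 505 ± 23.0 CPM, and neither was called. The Y-linked gene Ddx3y had 41.0 and 43.3 CPM in the CASP lines from males and at most 0.19 CPM in those from females, and 66.8 and 0 CPM in B6D2F1 M3 and F2, as the labels give the sexes.

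The strains differed at 7126 of 20232 genes tested, or 35.2%. Of these, 3702 genes (18.3%) were higher and 3424 (16.9%) lower in CASP lines, and 4247 genes (21%) were called with a log2 fold change of at least 1 in size. Many called differences were modest, with 887 higher and 1168 lower genes between 0.5 and 1 on the log2 scale, but 484 genes were higher and 223 lower by 4 or more. Among the 15567 protein-coding genes tested the called share was again 35.2%, with 2570 higher and 2904 lower. Pseudogenes stood apart, with 764 of 2191 higher and 241 lower, and their median log2 fold change was 0.45 against 0.04 over all genes tested. With 1 B6D2F1 line left, the calls dropped to as few as 2005 higher (without B6D2F1 M3) and 1683 lower (without B6D2F1 F2).

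Single CASP lines carried whole-chromosome shifts that bear on genes of chromosomes 2 and 8. The median gene of chromosome 8 was 0.49 higher on the log2 scale in F4 than in the mean of the other CASP lines, over 526 genes. The median gene of chromosome 2 was 0.50 higher in F6, over 787 genes. Over all other autosomes and CASP lines the same median ran between -0.05 and 0.05. Fitted log2 fold changes printed below for genes on these chromosomes are in most cases given without F4 or F6 as well. The X chromosome showed a shift within the B6D2F1 pair, where F2 was 0.30 above M3 over 325 genes, whereas CASP females differed from CASP males by only 0.02. X-linked genes thus sat lower in CASP F4 and F6 than in B6D2F1 F2, by 0.24 and 0.31 in the median, while CASP M3 and M5 differed from B6D2F1 M3 by -0.05 and -0.03. DNA copies and X inactivation were not measured here.

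**Figure D1:**
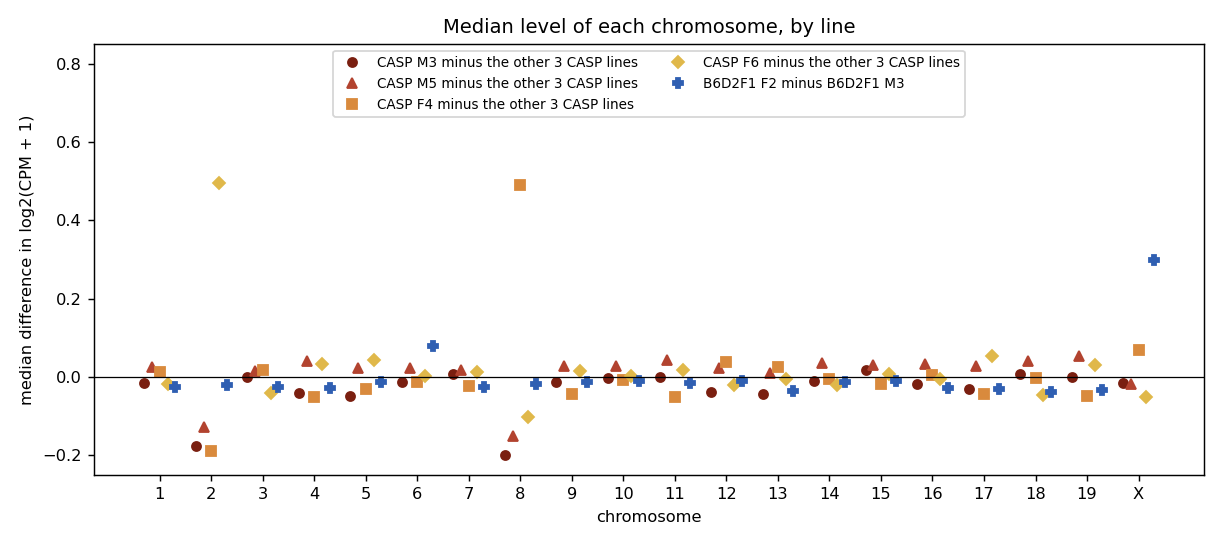
Median difference in log2(CPM + 1) over the genes of each chromosome with a mean CPM of at least 10. Circles, triangles, squares and diamonds are the 4 CASP lines, each minus the mean of the other 3, and crosses are B6D2F1 F2 minus B6D2F1 M3. CASP F6 stands out on chromosome 2 (0.50), CASP F4 on chromosome 8 (0.49) and B6D2F1 F2 on the X chromosome (0.30).

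The pluripotency network was present in all 6 lines, with strain differences in level. Of 18 core pluripotency genes tested, 8 were higher and 2 lower in CASP lines, and of 14 naive pluripotency genes 3 were higher and 5 lower. The called shares were 55.6% and 57.1%, beside 35.2% over all genes. Zfp42, which encodes the zinc finger protein Rex1 used as a naive marker, had 508, 573, 754 and 505 CPM in CASP M3, M5, F4 and F6, against 118 and 116 CPM in B6D2F1 M3 and F2. Its log2 fold change of 2.32 ± 0.21 (SE, adjusted p = 1.93e-05) was 2.17 without F4, since the gene lies on chromosome 8. Summed with its copy it was 2.34. Utf1 (log2 fold change 1.07), Zfp296 (1.41) and Prdm14 (0.98), which encode pluripotency-associated chromatin and DNA-binding factors, were also higher. Tcl1, an Akt coactivator, was lower at 32.9 ± 6.3 CPM in CASP and 66.8 ± 1.6 CPM in B6D2F1 lines. Pecam1, a surface adhesion molecule of naive cells, was 4.40 lower on the log2 scale. Fbxo15, a classical stem cell reporter locus, had 20.2, 17.2 and 15.3 CPM in CASP M3, M5 and F4 but 144 CPM in F6, against 245 and 248 CPM in B6D2F1 lines, so F6 stood between the other CASP lines and the B6D2F1 lines.

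Signalling genes that act around the exit from naive pluripotency moved in both directions. Nodal, a TGF-beta family ligand, had 225, 247, 180 and 237 CPM in CASP and 86.9 and 94.9 CPM in B6D2F1 lines (log2 fold change 1.29, adjusted p = 0.000177). Its feedback inhibitor Lefty1 went the other way, with 7.88 to 12.3 CPM in CASP and 54.5 and 92.4 CPM in B6D2F1 lines. Summed with its near-identical neighbour Lefty2 it was still 1.34 lower on the log2 scale. The activin receptor gene Acvr2b was lower (log2 fold change -2.03). Across the Nodal and activin list 4 of 20 genes were higher and 5 lower, a called share of 45% beside 35.2% over all genes. Bmp4, a ligand that sustains self-renewal with LIF, averaged 24.6 ± 7.8 CPM in CASP and 5.23 ± 0.86 CPM in B6D2F1 lines. Id1, a target of BMP signalling on chromosome 2, was higher by 2.18, and by 1.80 without F6. Acvr1, a receptor gene of the BMP list also on chromosome 2, was lower (log2 fold change -1.74, and -1.93 without F6). Over the BMP list 3 of 20 genes were higher and 2 lower, a called share of 25% beside 35.2% over all genes. The transcription factor gene Otx2, an early mark of formative cells, was higher by 1.68, whereas Etv4, an ETS factor downstream of FGF, was lower by 1.91. Fzd7, a Wnt receptor, fell to 33.2 ± 4.1 CPM in CASP lines, against 107 ± 17.2 CPM in B6D2F1 lines. Notum, whose product inactivates Wnt proteins, had 0.23 to 1.41 CPM in CASP and 25.9 and 29.0 CPM in B6D2F1 lines. The ESC library, at 4.04 CPM of Notum, lay far below both B6D2F1 ntESC lines. Over the canonical Wnt list 6 of 25 genes were higher and 3 lower, a called share of 36% beside 35.2% over all genes. Over the LIF and JAK-STAT list 2 of 20 were higher and 6 lower, a called share of 40%. Bcl3, a target of LIF signalling, was lower by 1.82, while the kinase gene Jak2 was higher by 1.05.

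Targets of p53 were the list with the largest share of higher genes among those drawn in the plot of gene lists. The tumour suppressor p53 answers DNA damage and other stress by switching on genes for cell cycle arrest, apoptosis and its own turnover. Of 25 tested members 17 were higher and 2 lower in CASP lines, with a median log2 fold change of 0.74. The called share was 76% beside 35.2% over all genes. The summed level of the list was 4032 to 4414 CPM in CASP lines and 2204 and 2682 CPM in B6D2F1 lines. Cdkn1a, which encodes the cell cycle inhibitor p21, had 366, 308, 350 and 267 CPM in CASP lines, against 106 and 123 CPM in B6D2F1 lines. It was higher by 1.501 ± 0.18 on the log2 scale (SE, adjusted p = 0.000129). Ccng1, a p53-induced cyclin gene, had 425, 411, 501 and 460 CPM in CASP and 149 and 215 CPM in B6D2F1 lines. Pmaip1, which encodes the pro-apoptotic protein Noxa, was higher by 1.70, and Plk2, a stress-induced kinase gene, by 1.39. Fas, a death receptor gene, was low everywhere but had 2.04 to 4.45 CPM in CASP and 0.245 and 0.289 CPM in B6D2F1 lines. Trp53 itself averaged 411 ± 17.1 CPM in CASP and 306 ± 18.4 CPM in B6D2F1 lines, and Mdm2, whose product degrades p53, 300 ± 16.4 and 169 ± 33.9 CPM. Zmat3, another p53 target, and the p53 relative Trp73 were the lower members.

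The ESC library did not side with the B6D2F1 ntESC lines on these genes. For 14 of the 19 called p53 genes its level was nearer the CASP mean than the B6D2F1 mean, and its summed level was 4991 CPM. Over all called genes it was nearer the CASP mean in 1895 of 7126, or 26.6%. When the ESC library was added to the B6D2F1 side, 5 of the p53 genes were called higher, and without B6D2F1 M3 7 were. Trp53 was an exception, with 144 CPM in the ESC library. Of 26 genes in the apoptosis list 9 were higher and 4 lower, a called share of 50% beside 35.2% over all genes. Bmf, a pro-apoptotic BH3-only gene on chromosome 2, was higher by 1.62, and by 1.68 without F6. Birc2, which encodes an inhibitor of apoptosis, was also higher, by 0.96.

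**Figure D2:**
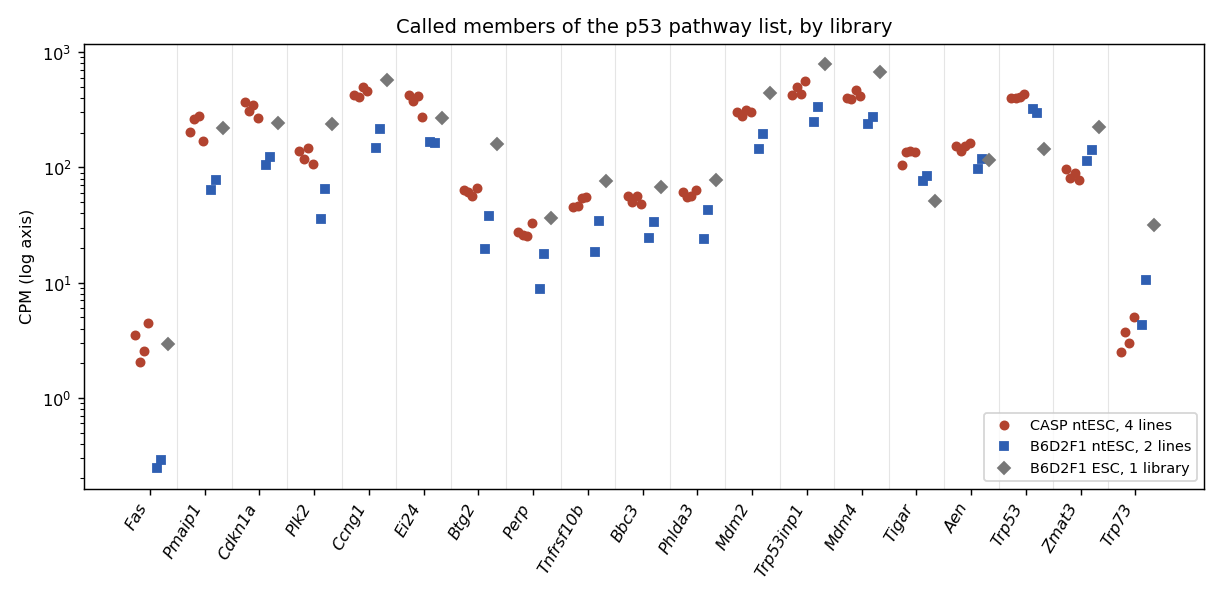
CPM on a log axis of the 19 called members of the p53 list, ordered by log2 fold change. Circles are the 4 CASP lines (M3, M5, F4, F6), squares the B6D2F1 lines (M3, F2) and diamonds the ESC library. CASP circles lie above both squares for the 17 higher genes, and the diamond is nearer the mean of the circles for 14 of the 19. Zmat3 and Trp73 are the lower genes on the right.

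**Figure D3:**
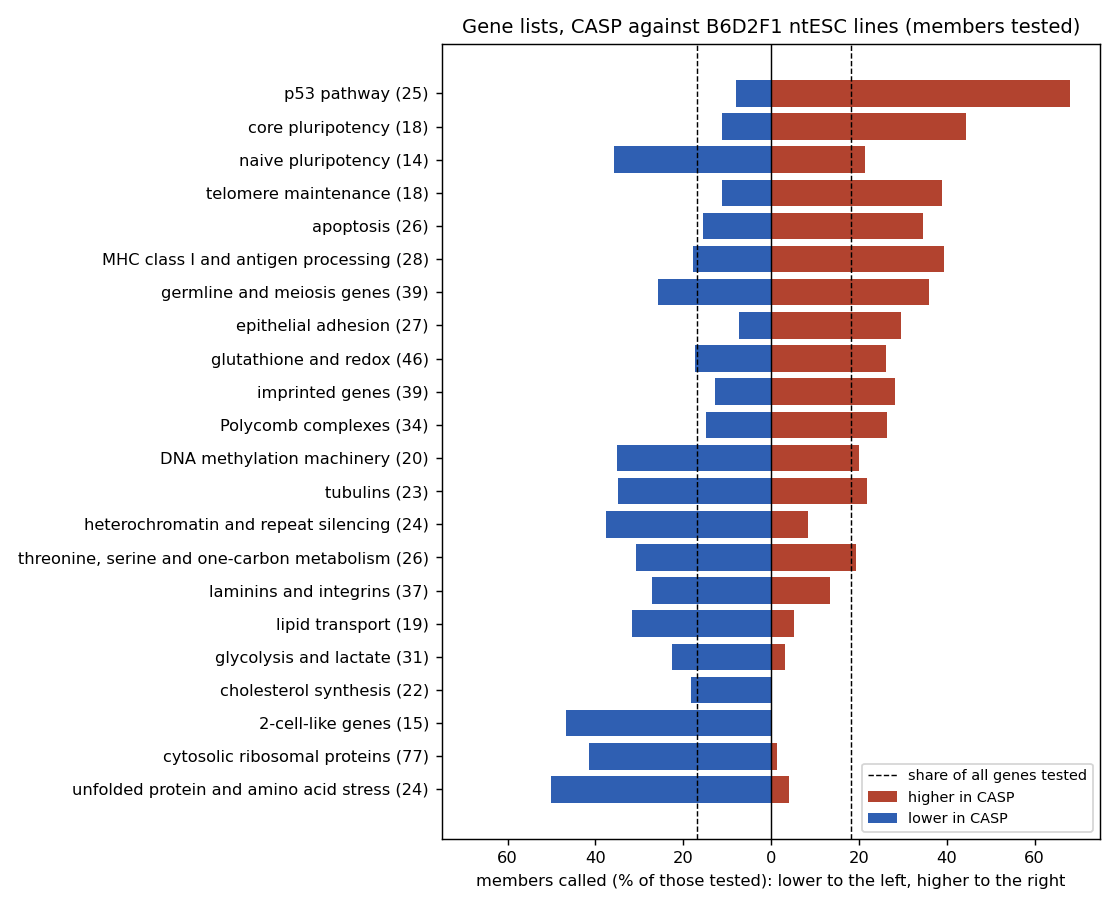
Share of the tested members of each list that were called higher (right) or lower (left) in CASP lines, with the number tested in parentheses. Dashed lines mark the shares over all genes tested, 18.3% and 16.9%. The p53 list has the longest bar to the right, with 17 of 25 members. The unfolded protein list, with 12 of 24, and the 2-cell-like list, with 7 of 15, have the longest bars to the left.

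Cytosolic ribosomal protein genes were called lower far more often than higher, 32 against 1 of 77, and many of the lower ones have near-identical copies. The called share was 42.9% beside 35.2% over all genes. A gene was said to have a copy when at least 10% of the 31-base words of its transcripts occur in those of another, non-overlapping gene. This description was chosen after the data had been seen. Words found in a very large number of genes were left out, so a gene of very many copies can fall under the limit. A gene without a copy in this sense can still share some sequence. Rps2, a component of the small ribosomal subunit at chr17:24718116-24721929, had 58.2, 55.6, 58.1 and 48.1 CPM in CASP lines, against 1647 and 1629 CPM in B6D2F1 lines. That is a log2 fold change of -4.90 ± 0.20 (SE, adjusted p = 9.82e-08). Its X-linked copy Rps2-ps13 showed the mirror image, with 1702, 1530, 1569 and 1479 CPM in CASP and 105 and 117 CPM in B6D2F1 lines. Added over Rps2 and its 28 copies, the level was 2372 ± 124 CPM in CASP and 2639 CPM in B6D2F1 lines, a log2 ratio of -0.15. Rps23 averaged 343 ± 20.3 CPM in CASP and 1378 ± 4.9 CPM in B6D2F1 lines, while its copy Rps23-ps2 on chromosome 8 had 758 to 879 CPM in CASP and 8.16 and 7.64 CPM in B6D2F1 lines (log2 fold change 6.72, and 6.73 without F4). Their family sums were 1345 ± 88.5 CPM in CASP and 1437 CPM in B6D2F1 lines. In both pairs the copy was high where the gene was low, and the family sums of CASP lines lay slightly below those of B6D2F1 lines without overlap.

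The sequences of these pairs show how little separates a gene from its copy. Rps2 and Rps2-ps13 agree at 872 of 879 coding bases, and Rps23 and Rps23-ps2 at 427 of 429. Stretches of 30 bases from the GENCODE M21 transcripts of the GRCm38 genome are shown because they hold bases that tell the pair apart. Capitals mark the bases that differ within a pair. They run from coding base 428 to 457 for the first pair and from 32 to 61 for the second.
Rps2: gctccaaggaggttgcCactgccatCcgag
Rps2-ps13: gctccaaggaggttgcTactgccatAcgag
Rps23: ggaagctccgcagtcaccgacgggaCcaga
Rps23-ps2: ggaagctccgcagtcaccgacgggaTcaga
These are reference sequences, and the castaneus bases at these places were not used here. The counting of reads that fit several copies is not given in the sources used here, and its part in the differences was not tested.

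Family sums reduced the difference for most ribosomal protein genes that have a copy. Of the 32 lower genes 24 have a copy, with a median log2 fold change of -0.88 for the gene alone and a median log2 ratio of -0.14 for the family sum. Rpl7a on chromosome 2 was lower by 3.48 alone (-3.57 without F6), yet its family sum was 1457 ± 250 CPM in CASP and 1467 CPM in B6D2F1 lines. Rpl29 was lower by 2.12 alone, while its family sum was 0.26 higher. Rps15 remained lower in the family sum, at 550 ± 53.2 CPM in CASP and 985 CPM in B6D2F1 lines. Among the 15 genes without a copy 8 were lower. The largest of these was Rpl39 on the X chromosome, with 70.3 to 84.2 CPM in CASP and 258 and 304 CPM in B6D2F1 lines. Summed over the 77 genes, CASP lines had 52940 to 57890 CPM and B6D2F1 lines 68290 and 69050 CPM. Summed over the 364 genes that include all copies, CASP lines had 73590 to 81500 CPM and B6D2F1 lines 82040 and 82590 CPM, so the gap narrowed but CASP lines stayed lower.

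The reverse side of this pattern lay in the pseudogenes. Of 163 named ribosomal protein pseudogenes 70 were higher and 35 lower in CASP lines, a called share of 64.4% beside 35.2% over all genes. Rps12-ps10 had 177 to 196 CPM in CASP and 0.816 and 0.788 CPM in B6D2F1 lines, and Rpl10a-ps4 30.2 to 34.6 CPM in CASP and 0.0816 and 0.0263 CPM in B6D2F1 lines. Both lie on chromosome 2, and their log2 fold changes of 7.86 and 9.16 were 7.90 and 9.15 without F6. Their family sums, which include the genes they copy, differed by -0.18 and 0.09 on the log2 scale. Where a copy is small beside the rest of its family, such a sum changes little whatever the copy does. These sums therefore do not show where the reads of a copy came from. Across all tested genes, pseudogenes included, 46.3% of those higher by 4 or more have a copy, against 15.5% of those not called. Of those lower by 4 or more the share was 31.8%. Among protein-coding genes alone the shares were 17.3% for higher and 29.1% for lower by 4 or more, against 8.54% of those not called.

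Gapdh and Hsp90aa1, both abundant genes with copies, differed in this respect. Gapdh, the glycolytic dehydrogenase gene, had 45.5, 38.7, 42.5 and 46.6 CPM in CASP and 615 and 730 CPM in B6D2F1 lines. With its copies the sums were 1152 to 1544 CPM in CASP and 1438 and 1563 CPM in B6D2F1 lines, which overlap. Hsp90aa1, the inducible cytosolic HSP90 chaperone gene, had 782 to 1139 CPM in CASP and 4116 and 3873 CPM in B6D2F1 lines. Its difference was nearly the same with copies, -2.10 in place of -2.16. Of 15 customary reference genes 6 were called lower in CASP lines, a called share of 40% beside 35.2% over all genes. They included Rplp0 (-1.01), Gusb (-1.75) and Ywhaz (-0.31). These values are for each gene alone, and 3 of the 6 have a copy, Rplp0 among them.

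**Figure D4:**
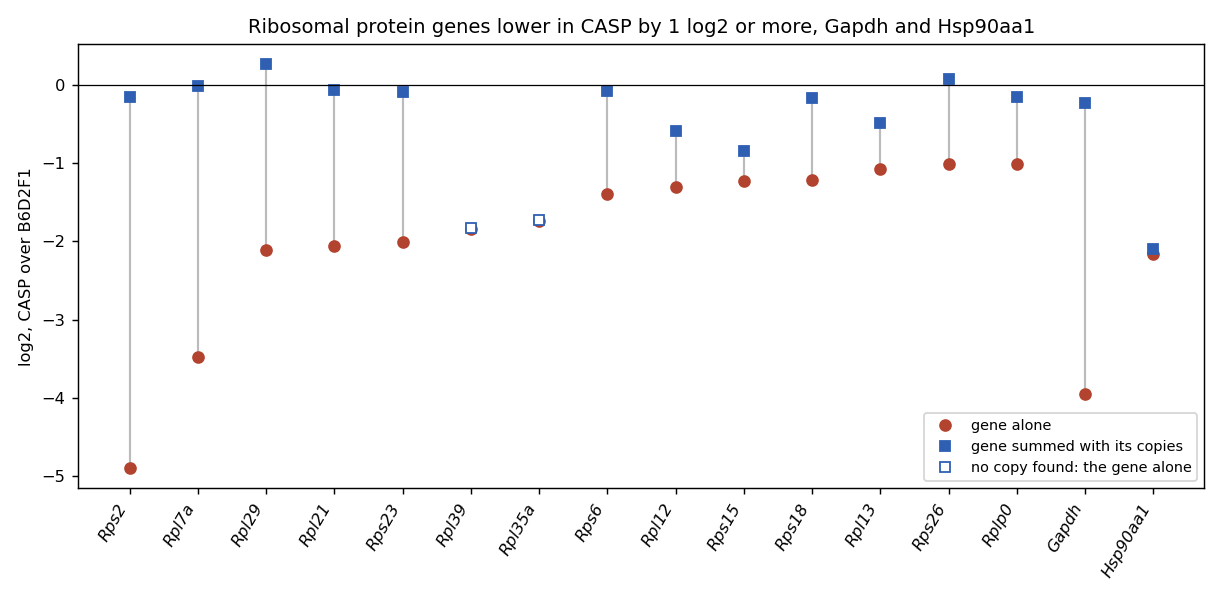
log2 difference of CASP over B6D2F1 lines for the 14 ribosomal protein genes called lower by at least 1, and for Gapdh and Hsp90aa1. Circles are the gene alone and squares the sum of the gene and its copies, with open squares where no copy was found. For Rps2 the circle is at -4.90 and the square at -0.15. Hsp90aa1 stays at -2.10, and Rpl39 and Rpl35a have no copy.

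Of 24 genes of the unfolded protein and amino acid stress list 12 were lower, 1 was higher and 11 were not called. The called share was 54.2% beside 35.2% over all genes. The endoplasmic reticulum folds secreted proteins, and the unfolded protein response raises its chaperones through Xbp1 and Atf6. The list had a median log2 fold change of -0.40, and none of the 12 lower genes has a copy. Pdia4, a disulfide isomerase gene, had 84.1, 87.4, 75.1 and 90.6 CPM in CASP and 204 and 258 CPM in B6D2F1 lines (log2 fold change -1.46, adjusted p = 2.11e-05). Sdf2l1, a co-chaperone gene, had 10.1 to 11.9 CPM in CASP and 27.2 and 35.9 CPM in B6D2F1 lines. Xbp1 was lower by 1.09, and the chaperone gene Canx by 0.26. The exception was Atf3, a stress-induced transcription factor gene, with 51.7 to 86.8 CPM in CASP and 15.4 and 20.6 CPM in B6D2F1 lines. Without B6D2F1 F2 the number of lower genes was 7. Serpinh1, the collagen chaperone gene, fell to 103 ± 21.7 CPM in CASP lines, against 395 ± 57.2 CPM in B6D2F1 lines. Heat shock genes were split, with 4 of 19 higher and 5 lower, a called share of 47.4%. Hspb1, a small heat shock protein gene that has a copy, was lower by 1.55 when counted alone, and its co-chaperone Bag3 was higher by 1.57.

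Metabolic genes changed at single steps more than as whole pathways. Pfkp, the platelet-type phosphofructokinase gene that commits sugar to glycolysis, had 218, 230, 355 and 303 CPM in CASP and 1131 and 1098 CPM in B6D2F1 lines. Its log2 fold change was -2.04 ± 0.13 (SE, adjusted p = 2.03e-06). The glucose transporter gene Slc2a3 averaged 1165 ± 303 CPM in CASP and 2274 ± 292 CPM in B6D2F1 lines. In glycolysis 7 of 31 genes were lower and 1 higher, Pfkfb2 by 0.96. Their called share of 25.8% was below the 35.2% of all genes. Of the lower genes 2 have a copy, Gapdh among them. In cholesterol synthesis 4 of 22 genes were lower, a called share of 18.2% beside 16.9% of all genes lower and 35.2% called, among them the synthase genes Hmgcs1 (-0.78) and Lss (-0.66). In the lipid transport list 6 of 19 were lower and 1 higher, a called share of 36.8%. Apoe, an apolipoprotein gene, averaged 299.8 ± 41.2 CPM in CASP and 676 ± 28.8 CPM in B6D2F1 lines. The cholesterol exporter gene Abca1 was lower by 1.42, and Pltp, a phospholipid transfer gene on chromosome 2, by 1.23 (-1.48 without F6). Elovl6, a fatty acid elongase gene, was higher at 457 ± 42.4 CPM in CASP and 242 ± 1.9 CPM in B6D2F1 lines, and Scd2, a desaturase gene, was lower by 0.93.

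Nucleotide and redox genes differed too. Rrm2, the ribonucleotide reductase subunit gene of S phase, had 209 CPM in CASP M3 and 104 to 111 CPM in the other CASP lines, against 477 and 510 CPM in B6D2F1 lines. Shmt2 and Phgdh, of mitochondrial serine use and serine synthesis, were lower by 0.94 and 0.86. The Phgdh difference shrank to -0.10 with its copies. In the one-carbon list 5 of 26 genes were higher and 8 lower, a called share of 50% beside 35.2% over all genes. The ESC library had 162 CPM of Shmt2, below the 216 to 284 CPM of the CASP lines and the 490 and 460 CPM of the B6D2F1 lines. Of 46 glutathione and redox genes 12 were higher and 8 lower, a called share of 43.5%. Gstp2, a glutathione transferase gene, had 73.3 to 120 CPM in CASP and 17.9 and 26.2 CPM in B6D2F1 lines, and the sum with its near-identical neighbour Gstp1 was higher by 2.16. Gss, the glutathione synthetase gene on chromosome 2, had 175 CPM in F6 and 54.8 to 84.4 CPM in the other CASP lines, against 22.2 and 29.0 CPM in B6D2F1 lines. It was higher by 1.91, and by 1.47 without F6.

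Genes for chromatin and DNA methylation included one of the largest differences among regulators. Phf19, a Polycomb-like accessory factor of Polycomb repressive complex 2, had 69.9, 64.3, 46.5 and 89.3 CPM in CASP lines. In B6D2F1 lines it had 6.42 and 6.72 CPM, and in the ESC library 17.9 CPM. Its log2 fold change was 3.36 ± 0.27 (SE, adjusted p = 9.6e-06), and 3.20 without F6, since it lies on chromosome 2. Over the Polycomb list 9 of 34 genes were higher and 5 lower, a called share of 41.2% beside 35.2% over all genes. The core genes Ezh2 and Suz12 and the cofactor gene Jarid2 were higher by 0.49, 0.54 and 0.87. The other accessory gene Phf1 was lower by 1.35, and Ezh1, the less active methyltransferase gene, by 1.05. Pcgf5, of variant Polycomb repressive complex 1, was higher by 1.23. In the DNA methylation list 4 of 20 genes were higher and 7 lower, a called share of 55%. Dnmt3a, a de novo methyltransferase gene, had 311 and 323 CPM in the CASP lines from males and 211 and 182 CPM in those from females, against 146 and 113 CPM in B6D2F1 lines. Gadd45a, linked to DNA demethylation and growth arrest, fell to 16.0 ± 4.4 CPM in CASP lines, against 72.4 ± 11.2 CPM in B6D2F1 lines. Of 24 heterochromatin and repeat silencing genes 9 were lower, 2 were higher and 13 were not called, a called share of 45.8%. The lower genes included Tasor (-0.87), a HUSH complex gene, and Zfp809 (-1.31), which recognises retroviral primer sites. Resf1, a partner of Setdb1, was higher by 1.36.

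Of 15 genes that mark the rare 2-cell-like state 7 were lower in CASP lines, of which 6 are Zscan4 genes. The called share was 46.7% beside 35.2% over all genes. Zscan4 genes, which act at telomeres in this state, are near-identical copies, so their sum is the safer value. Zscan4f and its family summed to 4.46, 1.98, 0.903 and 0.803 CPM in CASP M3, M5, F4 and F6, against 55.4 and 10.6 CPM in B6D2F1 M3 and F2. The B6D2F1 lines differed from each other by a larger ratio than B6D2F1 F2 did from CASP M3. Telomere genes as a list were more often higher, 7 against 2 of 18, a called share of 50%. The lower genes were Terf1, which binds telomeric repeats and is highly expressed in stem cells, at 44.5 ± 5.5 CPM in CASP and 125 ± 5.0 CPM in B6D2F1 lines, and Pot1a (-1.56), the single-strand binding gene. Nhp2, of the telomerase ribonucleoprotein, was higher by 0.88.

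Zinc finger genes were called in both directions, 85 higher and 62 lower of 384, and their called share of 38.3% was near the 35.2% of all genes. The longest run of neighbouring genes that were higher was a cluster of 12 such genes at chr4:145585166-147180579, with a median log2 fold change of 1.203. Zfp980 in it had 221, 238, 203 and 252 CPM in CASP and 89.9 and 73.1 CPM in B6D2F1 lines. Members of the cluster share much of their sequence, and Zfp600 summed with its copies was higher by 1.01. Zfp934 on chromosome 13 was higher by 3.20, and with its neighbour copy Zfp808 by 2.50. Zfp711 on the X chromosome had 16.1 to 31.2 CPM in CASP and 2.37 and 3.49 CPM in B6D2F1 lines.

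Imprinted genes, which are read from one parental allele, were more often higher, 11 against 5 of 39, and none of the 39 has a copy. Their called share was 41% beside 35.2% over all genes. Dio3, the deiodinase gene of the Dlk1-Dio3 domain, had 38.6, 65.7, 23.8 and 34.2 CPM in CASP and 3.70 and 2.29 CPM in B6D2F1 lines, a log2 fold change of 3.74 ± 0.51 (SE, adjusted p = 0.000324). Inpp5f, a phosphatase gene with an imprinted variant, had 32.9, 32.7, 28.4 and 26 CPM in CASP and 7.01 and 4.73 CPM in B6D2F1 lines. A pair of genes of the Kcnq1 domain split the CASP lines by donor sex. Phlda2, a placental growth regulator gene, had 34.0 and 37.4 CPM in M3 and M5 and 14.1 and 8.52 CPM in F4 and F6, against 5.98 and 3.13 CPM in B6D2F1 lines. Cdkn1c, a cell cycle inhibitor gene, had 14.0 and 9.75 CPM in M3 and M5 and 4.88 and 1.79 CPM in F4 and F6, against 1.69 and 1.18 CPM in B6D2F1 lines. With 2 lines per sex the split was not tested. The ESC library, at 12.8 CPM of Cdkn1c and 13.7 CPM of Phlda2, lay within the CASP range.

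Germline and meiosis genes were called in both directions, 14 higher and 10 lower of 39. Their called share was 61.5% beside 35.2% over all genes. Sycp3, of the synaptonemal complex, had 70.8, 69.0, 45.5 and 41.4 CPM in CASP and 4.92 and 3.89 CPM in B6D2F1 lines (log2 fold change 3.66, adjusted p = 1.61e-06). Dpep3 on chromosome 8, a testis dipeptidase gene, had 13.2 to 25.9 CPM in CASP and 0.761 and 0.473 CPM in B6D2F1 lines (4.97, and 4.74 without F4). Stra8, which starts meiosis in response to retinoic acid, was lower, with 12 to 21.2 CPM in CASP and 85.1 and 98.6 CPM in B6D2F1 lines. Khdc3, a maternal-effect gene of the oocyte, was higher by 2.19. Tex21 and Spata31d1b, both genes of spermatogenic cells, were higher by 4.34 and 5.12. For Spata31d1b the sum with its copy Spata31d1a differed by 2.78.

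A few genes of selective autophagy were among the strongly higher genes. Calcoco2, the mouse homologue of the human autophagy receptor gene for NDP52, had 445, 585, 406 and 314 CPM in CASP and 46.6 and 64.2 CPM in B6D2F1 lines. Its log2 fold change was 2.93 ± 0.30 (SE, adjusted p = 5.13e-05), the largest among the higher protein-coding genes with a CASP mean over 100 CPM, and 2.97 for the sum with its copies. Optn, a receptor gene of the same pathway on chromosome 2, had 66.6 to 87.5 CPM in CASP and 15.4 and 12.9 CPM in B6D2F1 lines, with a log2 fold change of 2.46, and 2.37 without F6. Map1lc3b, whose product coats autophagosomes, lies on chromosome 8 and was higher by 1.88, and by 1.81 without F4. Tfeb, the transcription factor gene of lysosome formation, was lower by 1.88. Over the whole list 5 of 36 genes were higher and 5 lower, a share of 27.8% below that of all genes.

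Epithelial and matrix genes were called in both directions. Dab2, an endocytic adaptor gene that marks primitive endoderm, had 42.5, 82.2, 79.8 and 118 CPM in CASP and 1.71 and 2.94 CPM in B6D2F1 lines (log2 fold change 5.11, adjusted p = 3.94e-05). Gata6, a defining transcription factor gene of primitive endoderm, had 2.07 to 5.56 CPM in CASP and 1.47 and 2.05 CPM in B6D2F1 lines, and all 4 CASP lines lay above both B6D2F1 lines without passing the test (log2 fold change 0.88, adjusted p = 0.0927). Sox17 was under 1 CPM in all 6 lines and was not called. Over the primitive endoderm list 5 of 20 genes were higher and 5 lower, a called share of 50% beside 35.2% over all genes. Its summed level was 904 to 1034 CPM in CASP and 1126 and 1244 CPM in B6D2F1 lines. Keratins of simple epithelia were higher, with Krt19 at 36.3 to 53 CPM in CASP and 8.67 and 6.51 CPM in B6D2F1 lines, and Krt18 and Krt8 higher by 2.28 and 1.99. Krt8 has a copy, and its value is for the gene alone. In epithelial adhesion 8 of 27 genes were higher, among them the desmosome gene Dsp (1.61), and 2 were lower, among them Dsg2 (-2.38), a desmosomal cadherin gene. Their called share of 37% was near the 35.2% of all genes. Basement membrane genes were split. Col4a1 on chromosome 8 was at 122 to 147 CPM in CASP and 33.1 and 35.0 CPM in B6D2F1 lines (1.98, and 1.97 without F4). The laminin gene Lamb1 was higher by 1.58, while the laminin genes Lama3, Lama1 and Lamc1 were lower by 0.86, 0.55 and 0.40 and the collagen gene Col18a1 by 0.61. Of 37 laminin and integrin genes 5 were higher and 10 lower, a called share of 40.5%. The integrin gene Itga3 was nearly lost, with 1.85 to 3.01 CPM in CASP and 21.8 and 23.0 CPM in B6D2F1 lines, and Fn1, the fibronectin gene, was lower by 0.80.

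Markers of fibroblasts, the feeder cell type, moved unevenly between lines, and the part of feeder RNA in the matrix genes was not tested. Of 24 fibroblast markers 3 were higher and 1 lower, a called share of 16.7% beside 35.2% over all genes. The list summed to 1271 to 1802 CPM in CASP, 2191 and 2245 CPM in B6D2F1 lines and 14130 CPM in the embryonic fibroblast library. Fn1 made up most of that sum in the lines. Col1a1 had 104.9, 17.1, 30.4 and 81.7 CPM in CASP M3, M5, F4 and F6, against 22.7 and 21.9 CPM in B6D2F1 lines and 1645 CPM in fibroblasts. M3 and F6 thus stood above the other lines. M5, with the least Col1a1, had 82.2 CPM of Dab2, 36.4 CPM of Krt19 and 134 CPM of Col4a1, all above both B6D2F1 lines. Twist2 was at most 0.377 CPM in the 6 lines. In fibroblasts Dab2 had 107 CPM, Col4a1 1369 CPM, Lamb1 425 CPM and Krt19 23.6 CPM. In the leukocyte list 4 of 17 genes were higher and 2 lower, a called share of 35.3%, and S100a8 and S100a9 were at 0 in every line. The leukocyte list summed to 43.8 to 78.1 CPM in CASP and 81.9 and 89.7 CPM in B6D2F1 lines. Laptm5, a lysosomal membrane gene of blood cells, made up most of that sum in B6D2F1 lines, with 12.2 to 19.7 CPM in CASP and 61.8 and 69.4 CPM in B6D2F1 lines.

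Antigen presentation genes were mostly low but differed by strain. Of 28 genes 11 were higher and 5 lower, a called share of 57.1% beside 35.2% over all genes. H2-K1, a classical class I gene, had 3.45 to 5.10 CPM in CASP and 18.98 and 14.7 CPM in B6D2F1 lines, and H2-T3, a non-classical one, was higher by 2.74. Class I genes share sequence and are highly polymorphic, and H2-K1 summed with its copy H2-D1 was lower by 0.78. In the interferon list 9 of 41 genes were higher and 8 lower, a called share of 41.5% beside 35.2% over all genes. Stat2, of interferon signalling, had 6.49 to 10.8 CPM in CASP and 20.8 and 21.2 CPM in B6D2F1 lines, while the inducible gene Ifi27 was higher by 1.54.

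The genes of this paragraph and the next are protein-coding, averaged at least 10 CPM in the group where they were higher and had no overlap between groups. Apoc2, an apolipoprotein gene, also met these limits and had no count in any CASP line, against 13.65 and 9.929 CPM in B6D2F1 lines, at least 127-fold lower. Mmel1, a membrane metalloendopeptidase gene at chr4:154869585-154895528, had 88.3, 77.9, 62.4 and 67.1 CPM in CASP and 0.924 and 0.473 CPM in B6D2F1 lines, a log2 fold change of 6.74 ± 0.48 (SE, adjusted p = 3.75e-06). Its level in the ESC library was 3.93 CPM. Ano7, of the anoctamin membrane proteins, averaged 13.5 CPM in CASP and 0.326 and 0.368 CPM in B6D2F1 lines. Atp2c2, a Golgi calcium and manganese pump gene on chromosome 8, was higher by 5.99, and by 5.92 without F4. Pcdh8, a protocadherin gene, had 31.5 and 36.8 CPM in CASP males and 20.6 and 12.5 CPM in CASP females, against 1.01 and 0.788 CPM in B6D2F1 lines. Olfr482 was higher by 4.61 alone, and its sum with genes that share its sequence, such as Ramac, was higher by 0.28. The level of those genes itself dilutes the sum, so the sum does not show the source of the Olfr482 difference.

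On the lower side, Triml2 and Triml1 lie side by side at chr8:43129807-43193881 and encode tripartite-motif-like proteins. Triml2 had 0.261, 0.546, 0.594 and 0.123 CPM in CASP and 52.1 and 51.9 CPM in B6D2F1 lines (log2 fold change -7.05 ± 0.31, and -7.38 without F4). Triml1 had 0.278 to 0.594 CPM in CASP and 22.4 and 27.5 CPM in B6D2F1 lines (-5.82, and -6.04 without F4). Both are on the chromosome that was raised in F4, and both stayed under 1 CPM in every CASP line. Septin1, a filament-forming GTPase gene at chr7:127214447-127233130, had 2.03, 2.50, 1.86 and 5.37 CPM in CASP and 211 and 209 CPM in B6D2F1 lines (-6.17 ± 0.38). Gpa33, an epithelial surface antigen gene, had 0.955 to 1.24 CPM in CASP and 68.8 and 50.2 CPM in B6D2F1 lines. Myo1f, a myosin gene of blood cells, Tnfrsf8, which encodes the receptor CD30, and Sarm1, an NAD-cleaving enzyme gene, were lower by 5.39, 5.13 and 4.97. Among genes above 100 CPM, Poglut1, a Notch glycosyltransferase gene, fell to 10.2 ± 2.6 CPM in CASP lines, against 100.5 ± 11.8 CPM in B6D2F1 lines. The actin-binding gene Tmsb4x on the X chromosome had 25.2 to 34.4 CPM in CASP and 217 and 288 CPM in B6D2F1 lines. Among tubulins Tuba3a was lower by 2.96 and Tuba4a higher by 1.42.

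**Figure D5:**
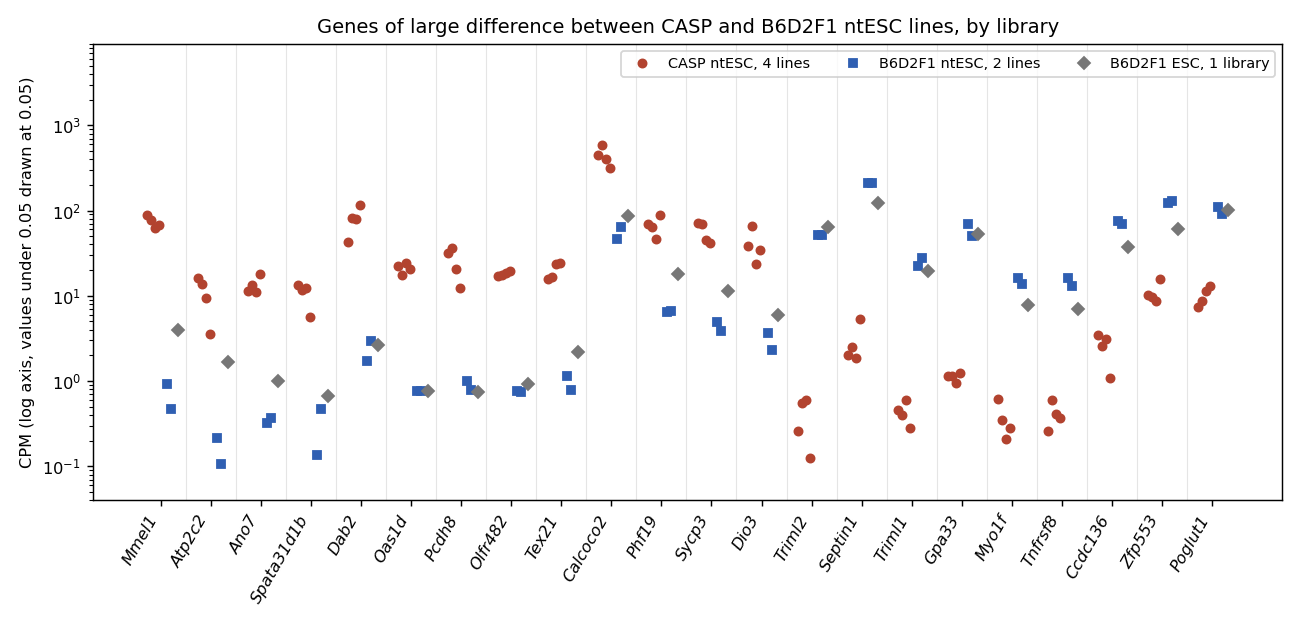
CPM on a log axis of 22 genes with large differences. Circles are the 4 CASP lines (M3, M5, F4, F6), squares the B6D2F1 lines (M3, F2) and diamonds the ESC library. The 13 genes on the left are higher and the 9 on the right lower in CASP lines, and circles and squares of a gene do not overlap. For Mmel1 the circles lie between 62.4 and 88.3 CPM and the squares under 1 CPM.

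Some of these genes also set CASP apart from CAST/Ei, the other castaneus strain of the series, against which 31.6% of genes were called. Mmel1 was higher in CASP by 5.01 over CAST lines, Xkr9 by 3.26 and Ano7 by 3.14. Triml2 was 7.55 lower in CASP than in CAST lines, which had 73.6 CPM, above the 52.0 CPM of B6D2F1 lines. Tnfrsf8 and Sarm1 were 3.98 and 3.88 lower in CASP than in CAST lines. For Rps2 the CAST mean of 62.1 CPM was close to the 55.0 CPM of CASP lines, with a log2 difference of -0.17 (adjusted p = 0.471), and Notum was low in both strains as well. Gpa33 and Ccdc136 lay between these cases, at 2.39 and 5.48 CPM in CAST lines.

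Genes with no count at all in one group were few. With no count in any CASP line and at least 5 CPM in both B6D2F1 lines there were 5 genes, and 4 had none in B6D2F1 lines and at least 5 CPM in every CASP line. At a lowest level of 1 CPM the numbers were 22 and 17. Ubd, a ubiquitin-like modifier gene, had 3.10 and 3.63 CPM in B6D2F1 lines and none in CASP lines, at least 36.3-fold lower against a floor of 3 counts per library. Dpep2 on chromosome 8, a dipeptidase gene like Dpep3, had 2.04 to 3.83 CPM in CASP and no count in B6D2F1 lines, at least 33.3-fold higher, with 2.40 CPM in F4. Slc13a2, a dicarboxylate transporter gene, was at least 22.1-fold higher in CASP lines.

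Among 10561 expressed protein-coding genes in chromosome order, 21 runs of at least 4 neighbours with 110 genes were higher and 47 runs with 226 genes lower. The longest lower run held 14 genes at chr7:127015051-127335138, with a median log2 fold change of -0.98. It included Septin1, Zfp553 (-3.52) and Qprt (-3.33), an enzyme gene of NAD synthesis. A run of 9 genes at chrX:135742733-136140443 included Bex2 (-1.35, and -0.63 for the sum with its copies), Bex4 (-0.93) and Nxf3, which had 0.123 to 2.66 CPM in CASP and 9.13 and 14.4 CPM in B6D2F1 lines. It lies on the X chromosome, whose genes were 0.30 higher in B6D2F1 F2 than in M3. A run of 8 at chr5:135887919-136136074 included Hspb1, the zona pellucida gene Zp3 (-3.06) and Ywhag (-0.97), a 14-3-3 adaptor gene. A higher run of 6 at chr1:172271709-174248450 included Tagln2 (1.63), an actin-binding gene. The second longest higher run, at chr2:83955693-84650765, held 7 copies of 1 gene family and Tfpi (1.49, and 1.39 without F6), an inhibitor gene of blood clotting.

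CASP lines also differed among themselves in a small set of genes. Among 9200 protein-coding genes with at least 10 CPM in the highest CASP line, 24 had 1 line at least 4-fold away from the nearest other, and Xlr3a had this gap in both F4 and F6. F4 was the high line for 12, of which 10 lie on the X chromosome. Xlr5a, of a family of lymphoid and germ cell genes, had 32.1 CPM in F4 and 0.811, 2.13 and 0.309 CPM in M3, M5 and F6, against 20.4 and 21.3 CPM in B6D2F1 lines. Xlr3a had 63.2 CPM in F4 and 0.772 to 11.6 CPM in the others, against 59.7 and 86.5 CPM in B6D2F1 lines. The Xlr genes are near copies of each other, and they were near B6D2F1 levels in F4 and low in the other CASP lines. F6 was the low line for 7 genes. Bst2, the antiviral tetherin gene, had 6.52 CPM in F6 and 39.96 to 59.9 CPM in the other CASP lines, against 33.6 and 42.0 CPM in B6D2F1 lines. Klhl13, an X-linked ubiquitin ligase adaptor gene, had 16.9 CPM in F6 and 89.0 to 122 CPM in the others, and Sycp1, of the synaptonemal complex, 18.8 CPM in F6 and 81.7 to 201 CPM in the others. The male lines M3 and M5 stood apart in 1 gene each. The Y-linked gene Uba1y had 140.6 and 156 CPM in CASP M3 and M5 and 21.8 CPM in B6D2F1 M3, the only B6D2F1 line from a male. In the Y-linked list, which holds neither Uba1y nor Zfy2, 1 of 6 genes was lower and 5 were not called. The lower gene was Zfy1, which has a copy, at 3.16 and 2.73 CPM in CASP M3 and M5 and 13.4 CPM in B6D2F1 M3. Zfy2 went the other way, with 18.9 and 21.3 CPM in CASP M3 and M5 and 2.15 CPM in B6D2F1 M3.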

How the data were processed

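RNA-seq libraries of 4 CASP and 2 B6D2F1 ntESC lines were compared, with 4 CAST ntESC lines in the same fit. The deposited counts were made by the authors, with fastp 0.22.0, HISAT2 2.2.1 and StringTie 2.1.7 on GRCm38 per the submitters' processing notes. The deposited log2 values, which the authors made from size-factor-scaled counts plus an offset of 4, were used only in an alternative. Members and gene lists were chosen with earlier results of these data known.

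Counts were tested with edgeR 4.0.16 (R 4.3.3) by the quasi-likelihood test with sex as covariate, TMM factors of all 13 libraries, filterByExpr and Benjamini-Hochberg adjustment over 20232 genes, threshold 0.05. DESeq2 1.42.0 and limma 3.58.1 were alternatives, and Python 3.11.15 made descriptions and figures. The fit was tested on simulated data. Genes named were, in each direction, the 12 of largest change among non-overlapping protein-coding genes over 10 CPM and the 10 over 100 CPM. From each list up to 4 called members of at least 5 CPM without overlap were named. Where none passed, the member of smallest adjusted p was taken. For these genes non-overlap is thus a condition of naming and not a result. Pou5f1, Sox2, Nanog and Canx, and genes of runs and single lines, were named too. Other list members, Rps2-ps13, Rps12-ps10, Rpl10a-ps4, Ei24, Fas, Mdm2, Trp53, Zmat3, Trp73, Rpl39, Ubd, Dpep2, Slc13a2, Uba1y and Zfy2 were chosen after their values were seen, as was the definition of a copy. Symbols of copies and coordinates came from GENCODE M21. Genes matched by Ensembl ID numbered 21675 of 21706. Column names identified every library used. A few genes are not reported here.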

Additional observations from a re-analysis of the deposited data

Results flagged for a closer look

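Of 183 genes with at least 5 CPM in a CASP line examined over the 4 CASP lines, 14 had 1 line far from the other 3, by a gap to the nearest line that exceeds Dixon's critical value, and chance alone flags about 1 in 20 groups of this size. That rate does not apply to Fbxo15, Xlr5a, Xlr5b and Xlr5c, which are among the genes found because 1 line stood apart. Of the other 174 genes 10 had such a line. Hydin had 160.1 CPM in F4 and lies on chromosome 8, whose median gene was 0.49 higher in this line. The X-linked genes Xlr5a, Xlr5b, Xlr5c and Bex2 had 32.15, 24.05, 19.59 and 22.14 CPM in F4, above the other CASP lines. Serpinh1, the collagen chaperone gene, had 135.6 CPM and Pot1a, of telomere protection, 26.4 CPM in F4. F6 was the high line for Fbxo15 at 144.3 CPM, for Trp53 at 436.5 CPM and for T, the mesoderm factor gene, at 9.296 CPM, and the low line for Nabp1, a single-strand DNA binding gene, at 88.02 CPM. M3 was the high line for Xbp1 at 28.77 CPM and for Rrm2 at 209.1 CPM, and M5 the low line for Pfkfb2 at 31.36 CPM.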

How the results depend on the processing

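With only 4 CASP and 2 B6D2F1 lines, the counts of called genes depend most on the B6D2F1 side. Leaving out 1 line at a time gave 2005 to 3974 higher and 1683 to 3612 lower genes, 7 to 18 higher p53 genes, 24 to 31 lower ribosomal protein genes and 7 to 14 lower genes of the unfolded protein list, with fewer samples in each fit. A mean CPM of at least 5 left 2167 higher genes, since fewer genes were tested. Requiring a log2 fold change of at least 1 left 1743 lower genes, 8 higher p53 genes, 14 lower ribosomal protein genes and 4 lower unfolded protein genes by construction. Restricting to genes with no copy, added after seeing the data, left 8 lower ribosomal protein genes. Adding the ESC library to the B6D2F1 side left 5 higher p53 genes, and the cause was not tested. An 8-fold gap left 7 genes in which 1 CASP line stood apart. A minimum of 1 CPM gave 37 higher and 70 lower runs, and 22 and 17 genes without a count in CASP or B6D2F1 lines.

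DESeq2 called 99.5% of the higher and 98.8% of the lower genes of the edgeR fit, and fitting the 6 lines alone 81.6% and 79.9%, with 0 called in the opposite direction in either. Of 191 named genes called, 26 lost the call without B6D2F1 M3, 25 without B6D2F1 F2 and 19 with the ESC library added, and 0 turned direction under any alternative run. Among genes not called, Sox2 ran between -0.0307 (without B6D2F1 F2) and 0.0848 (without CASP F6) on the log2 scale when 1 line was left out, being -0.03 without CASP M5 and -0.02 without CASP F4. Nanog ran between -0.0667 (without CASP M5) and 0.0941 (without CASP F6), being -0.06 without CASP F4, -0.04 without B6D2F1 M3 and -0.0008 with TMM factors of the 6 lines. Bst2, which is low in F6 alone, ran between -0.34 and 0.41 (without F6), being 0.30 without B6D2F1 F2, 0.56 without F4 and F6, and 0.0151 with no sex covariate. No paired analysis was made because the design does not pair CASP lines with B6D2F1 lines, and line numbers are only names.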
